A study of Mus musculus with 21 samples.

Results

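Axon guidance cues and their receptors were measured in neural stem and progenitor cells of mice exposed to valproic acid (VPA) before birth. The group comprised every gene symbol beginning with Sema3 to Sema7, Plxn, Epha, Ephb, Efna or Efnb with a number, Ntn1 to Ntn5 or Unc5, together with Nrp1, Nrp2, Robo1 to Robo4, Slit1 to Slit3 and Dcc. Of 24322 symbols, 72 matched these names, and 66 of them reached at least 1 FPKM (fragments per kilobase of transcript, scaled to the mapped fragments of the library) in at least 3 of the 21 libraries and were kept. Over all symbols 14662 met the same level rule. The 6 symbols left out were Epha1, Epha6, Epha10, Ntn5, Unc5cl and the antisense transcript Plxna4os1. One kept symbol, Unc50, matched by its name alone: it encodes a membrane protein that is not a netrin receptor, and it was left out of the family sums.

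The cells were sorted by flow cytometry as EGFP positive from Nestin-EGFP mice on a C57BL/6 background, so the sort followed a reporter of the intermediate filament gene Nestin and none of the genes described here. Pregnant mothers received VPA by mouth at 300 mg/kg per day, or methylcellulose as the control, on embryonic days 12, 13 and 14. There were 3 libraries in each of 7 groups: VPA and Control from the forebrain at embryonic day 15 (E15), VPA and Control from the hippocampal dentate gyrus at postnatal day 5 (P5), and VPA with voluntary running, sedentary VPA and Control from the dentate gyrus at 12 weeks. A running group without VPA was not analysed here. The number of animals behind a library is not given in the sources used here, so the spread between libraries may be partly technical.

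The group spans the main families of guidance cues. Semaphorins are secreted or membrane-bound ligands that act through plexins, with neuropilins as coreceptors for most secreted class 3 members. Ephrins and Eph receptor tyrosine kinases are both held at the cell surface and signal in both directions on contact. Slits repel growing axons through Robo receptors, and netrins attract through Dcc or repel through Unc5 receptors. In the developing brain these cues steer axons and migrating neurons, and several of them also act on progenitors and on blood vessels.

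The sort label was set beside markers. All 10 neural stem cell and radial glia markers, among them Nes, Sox2 and Hes5, were above 0 in at least 1 library of every group. At E15 and P5 the same held for every gene of the microglia and endothelial lists, so this does not test the label. The stem cell and radial glia markers summed to 476 to 627 FPKM in VPA and 533 to 643 FPKM in Control libraries at E15. Among them Gfap was at no more than 0.451 FPKM at E15. Other cell types were also present: newborn neuron markers summed to 3078 to 3261 FPKM in VPA and 3139 to 3875 FPKM in Control libraries at E15, and oligodendrocyte precursor markers summed to 824 to 1124 FPKM in running VPA, 1681 to 2656 FPKM in sedentary VPA and 1001 to 1533 FPKM in Control libraries at 12 weeks. Genes above 0 numbered from 16116 to 16734 in E15 libraries, from 17251 to 17601 in P5 libraries and from 12019 to 15210 in 12-week libraries. Of the 66 guidance genes, at most 1 was listed at 0 in an E15 library and none at P5, against up to 9 in a 12-week library, the most in running VPA replicate 3. Their median replicate SD of log2(FPKM + 1) was 0.143 in VPA and 0.0944 in Control at E15, 0.127 in VPA and 0.0982 in Control at P5, and 0.417 in running VPA, 0.368 in sedentary VPA and 0.282 in Control at 12 weeks. Some libraries stood apart. In Control 12-week replicate 1 the microglia markers summed to 390 FPKM, against at most 99.1 FPKM in every other 12-week library, and the erythroid markers to 824 FPKM, against at most 162 FPKM. In running VPA 12-week replicate 3 small RNA genes held 27.7% of the summed FPKM, against 13.0% to 19.4% in the other 12-week libraries. In VPA E15 replicate 3 the choroid plexus markers summed to 11186 FPKM, against at most 156 FPKM in every other E15 library. In the same library Sema3b, a secreted class 3 semaphorin, was at 4.98 FPKM, against 0.240 to 0.318 FPKM in the other E15 libraries, and Slit3 was at 0.397 FPKM, against 2.77 to 3.56 FPKM. In whole sorted fractions such as these, fewer cells of a type and less RNA per cell cannot be told apart.

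All values below are FPKM, which is scaled to transcript length, and means are given ± SD over 3 libraries. Semaphorins held the largest share of the summed signal at every age, at 452 ± 27.0 FPKM in VPA and 444 ± 16.7 in Control at E15, 661 ± 46.2 in VPA and 593 ± 14.2 in Control at P5, and 421 ± 67.3 in running VPA, 436 ± 6.42 in sedentary VPA and 467 ± 8.30 in Control at 12 weeks. By the mean over all 21 libraries, the secreted Sema3c led the semaphorins, Sema4g and Sema4c led class 4, Sema5b and Sema5a class 5, and Sema6d and Sema6c class 6, with the membrane-anchored Sema7a in class 7. The order changed with age: at E15 Sema3c averaged 15.9 FPKM in VPA and 26.7 FPKM in Control, below Sema4g at 75.8 FPKM in VPA and 74.5 FPKM in Control. Among plexins, Plxna3 (44.5 to 88.3 FPKM over all 21 libraries) and Plxnb2 (43.7 to 76.0 FPKM) were present at every age. By the same mean Efnb3 and Efnb2 led the transmembrane B class of ephrins, and Efna2 and Efna4 the lipid-anchored A class, but Efnb1 was above Efnb3 in Control at E15 (59.0 and 49.4 FPKM) and above Efnb2 in Control at 12 weeks (16.7 and 8.92 FPKM), and Efna3 was above Efna4 in Control at E15 (27.4 and 21.7 FPKM). Epha4, a receptor that binds ephrins of both classes, lay at 32.2 to 120.0 FPKM and had the highest Eph receptor mean over all libraries, although Epha3 was above it in VPA at E15, at 45.3 and 43.5 FPKM. The highest value of any Slit, netrin or Unc5 receptor was 35.02 FPKM, for Ntn1 in a sedentary VPA library at 12 weeks, and Dcc lay at 10.5 to 40.0 FPKM.

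**Figure D1:**
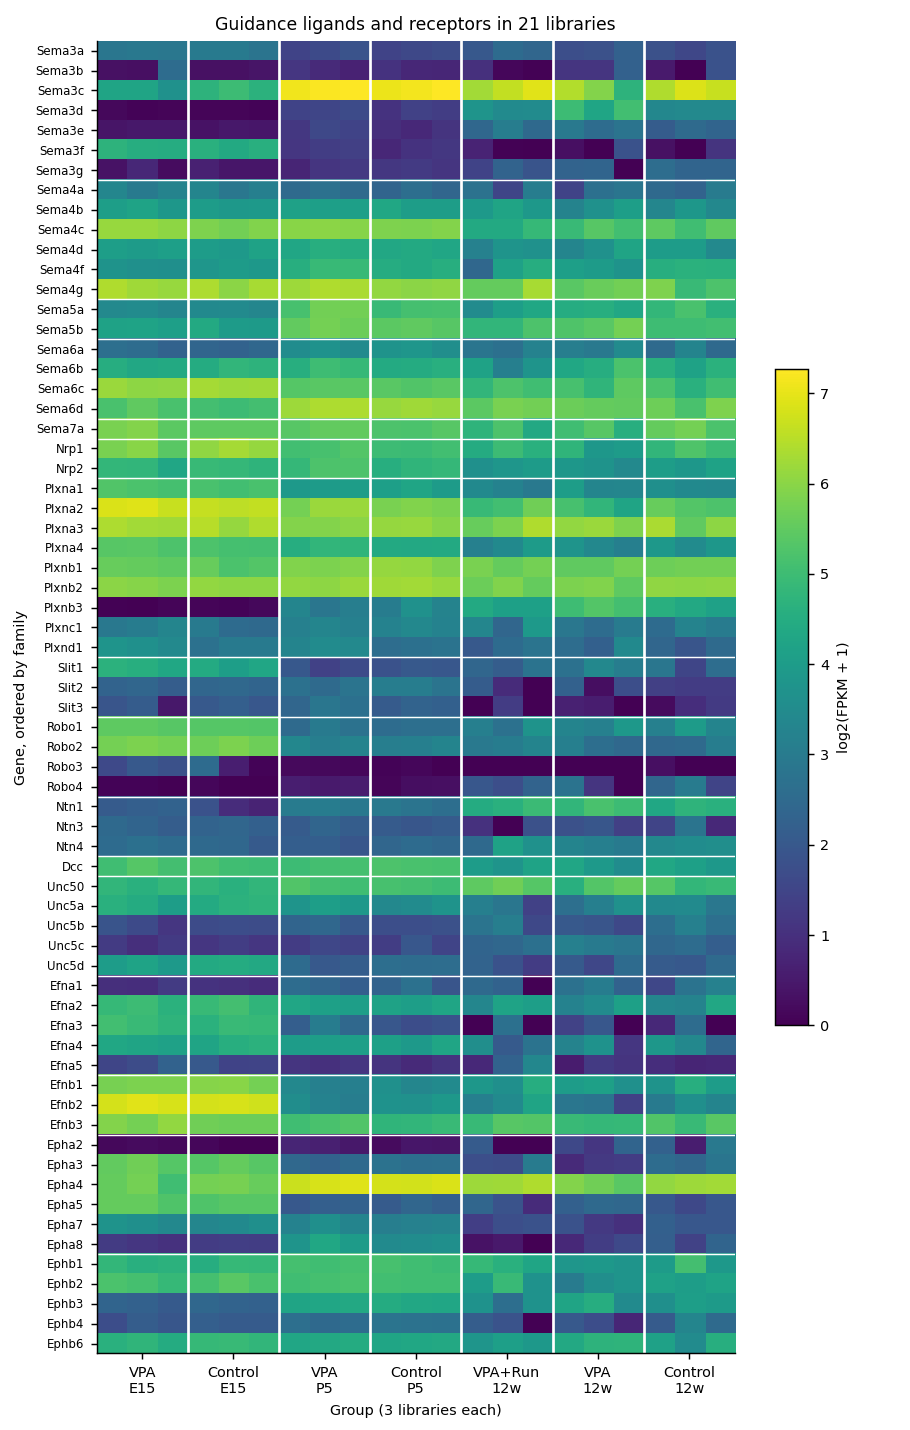
Levels of the 66 guidance genes in each of the 21 libraries, as log2(FPKM + 1) in colour; rows are genes ordered by family and columns are libraries in groups of 3, with VPA left of Control at each age and running VPA first at 12 weeks. The blocks for E15, P5 and 12 weeks differ more than the VPA and Control blocks within an age; the darkest cells at 12 weeks include the genes listed at 0, up to 9 in a library.

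Control libraries were compared between ages first. Between P5 and E15, 30 of the 66 genes passed the test (limma on log2(FPKM + 1), Benjamini-Hochberg adjusted over 14662 genes, threshold 0.05), 12 higher and 18 lower at P5, which is 45.5% against 20.7% of all genes tested. Of all genes 14.4% were higher and 6.33% lower. The median log2 fold change was -0.03 over the guidance genes and 0.14 over all genes. The test used the fit of all 21 libraries, so its SE and p also carry the wider replicate spread at 12 weeks. In a fit of only these 2 groups 48 guidance genes passed, with the share of all genes in that fit not given here. Tissue changed with age here, from forebrain to dentate gyrus, so the part of each cannot be told apart.

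Of 8 ephrins, 4 fell and none rose between E15 and P5, and 7 of 8 had their highest control mean at E15. Efnb2, a transmembrane ephrin, had 12.0, 11.9 and 13.8 FPKM at P5, against 110.1, 113 and 106 FPKM at E15, a log2 fold change of -3.03 (SE 0.31, limma adjusted p = 1.17e-06). Efnb1 had 11.6, 9.15 and 10.2 FPKM at P5, against 61.4, 62.4 and 53.3 FPKM at E15 (log2 fold change -2.41, adjusted p = 2.82e-07). Neither gene had a P5 library near its E15 range. Efna3 averaged 2.58 ± 0.324 FPKM at P5 and 27.4 ± 2.80 FPKM at E15 (log2 fold change -2.98). Its call was lost with a pseudocount of 0.1 (limma adjusted p = 0.131), in a fit that included 4 libraries listing Efna3 at 0, all at 12 weeks. The exons of Efna3 overlap an antisense gene. Efnb3 fell less, to 27.3 ± 1.86 FPKM at P5, against 49.4 ± 1.29 FPKM at E15.

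Eph receptors moved both ways. Epha5 had 3.26, 4.27 and 3.57 FPKM at P5, against 37.5, 40.4 and 40.3 FPKM at E15 (log2 fold change -3.11, SE 0.27, adjusted p = 1.47e-07), and Epha3 had 5.62, 5.17 and 5.27 FPKM at P5, against 40.0, 46.3 and 40.6 FPKM at E15 (log2 fold change -2.77, adjusted p = 5.14e-07). In contrast Epha8 had 10.2, 10.5 and 11.2 FPKM at P5, against 1.45, 1.53 and 1.49 FPKM at E15, a rise of 2.23 on the log2 scale (adjusted p = 4.83e-06). Ephb3 averaged 19.8 ± 1.19 FPKM at P5 and 4.05 ± 0.311 FPKM at E15, and Epha4 averaged 111 ± 3.97 FPKM at P5 and 51.2 ± 3.88 FPKM at E15. The 5 called Eph receptors thus split into 3 higher and 2 lower.

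Robo1 and Robo2 fell, as did their ligand Slit1. Robo2 had 7.62, 7.74 and 8.78 FPKM at P5, against 49.6, 56.0 and 49.6 FPKM at E15 (log2 fold change -2.54, SE 0.19, adjusted p = 1.93e-08). Robo1 had 4.91, 5.29 and 5.34 FPKM at P5, against 40.0, 39.9 and 39.3 FPKM at E15 (log2 fold change -2.72, adjusted p = 2.81e-07). Slit1, which repels axons through these receptors, had 2.58, 3.08 and 2.93 FPKM at P5, against 20.6, 15.9 and 18.7 FPKM at E15 (log2 fold change -2.32, adjusted p = 1.12e-05). The other Slits did not pass the test between these ages: Slit2 averaged 6.96 ± 0.825 FPKM at P5 and 4.28 ± 0.204 FPKM at E15, and Slit3 averaged 3.66 ± 0.350 FPKM at P5 and 3.21 ± 0.317 FPKM at E15.

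Semaphorins were the family with the most rises, 6 of 20, with 3 falls. Sema3c, a secreted cue that can attract cortical axons, had 133, 140.1 and 153 FPKM at P5, against 25.1, 30.5 and 24.7 FPKM at E15 (log2 fold change 2.37, SE 0.30, adjusted p = 1.26e-05). Sema5b had 42.7, 44.0 and 40.3 FPKM at P5, against 20.2, 14.9 and 14.5 FPKM at E15 (log2 fold change 1.32, adjusted p = 3.31e-06), and Sema5a had 29.6, 33.9 and 34.6 FPKM at P5, against 9.92, 10.1 and 9.14 FPKM at E15 (log2 fold change 1.65, adjusted p = 6.37e-06). The transmembrane Sema6d and Sema6a rose to 71.2 ± 2.13 and 12.2 ± 1.01 FPKM at P5, against 32.5 ± 1.40 and 4.13 ± 0.278 FPKM at E15. Sema3f, a secreted repellent that signals through Nrp2, moved the other way, with 0.738, 1.07 and 1.25 FPKM at P5, against 23.6, 20.4 and 23.0 FPKM at E15 (log2 fold change -3.54, SE 0.38, adjusted p = 1.96e-06). Sema3a, the classical collapsin that signals through Nrp1, fell to 2.004 ± 0.252 FPKM at P5, against 6.61 ± 0.519 FPKM at E15, and Nrp1 itself fell to 31.0 ± 1.13 FPKM, against 70.8 ± 6.34 FPKM.

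Among the plexins Plxnb3, a receptor that in the adult brain is known from oligodendrocyte lineage cells, had 7.37, 11.8 and 8.48 FPKM at P5, against 0.0613, 0.0549 and 0.106 FPKM at E15 (log2 fold change 3.23, SE 0.19, adjusted p = 1.36e-09). The oligodendrocyte precursor markers, 6 genes, summed to 395 to 475 FPKM in Control at P5 and 5.43 to 10.1 FPKM in Control at E15, and their part in the Plxnb3 difference was not tested. Plxna1, Plxna2 and Plxna4 fell and Plxnb1 rose, each by 0.66 to 1.02 on the log2 scale. In the netrin system Ntn1 had 6.73, 5.94 and 5.14 FPKM at P5, against 2.59, 0.909 and 0.660 FPKM at E15 (log2 fold change 1.62, SE 0.24, adjusted p = 5.76e-05). Its E15 control libraries were spread, and the highest of them was also the Control library with the most GABAergic interneuron marker signal. The repulsive netrin receptor Unc5d fell to 5.04 ± 0.126 FPKM at P5, against 20.4 ± 0.602 FPKM at E15. Unc5a passed at an adjusted p of 0.0380 and lost its call in 8 of 12 alternatives, and Dcc averaged 35.6 ± 1.21 FPKM at P5 and 33.0 ± 3.14 FPKM at E15 without passing.

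**Figure D2:**
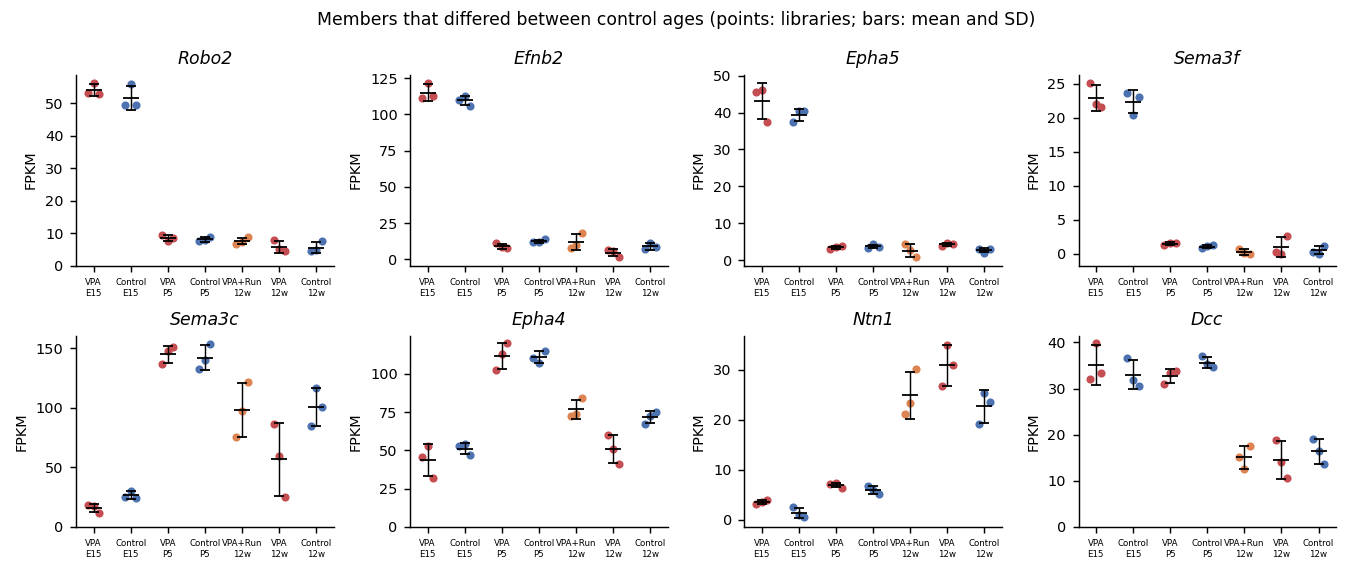
FPKM of 8 guidance genes in every library, with points for libraries and bars for the mean and SD of 3 libraries; groups run by age, with VPA left of Control and running VPA first at 12 weeks. Robo2, Efnb2, Epha5 and Sema3f are high at E15 and low afterwards in both VPA and Control; Sema3c and Epha4 peak at P5, Ntn1 is highest at 12 weeks, and Dcc is lowest there.

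Within the dentate gyrus, 25 of 66 genes differed between 12-week and P5 Control libraries, 9 higher and 16 lower at 12 weeks. This was 37.9%, against 12.6% of all genes tested (7.26% higher and 5.35% lower), with a median log2 fold change of -0.32 over the guidance genes and -0.04 over all genes. The count was 14 without Control 12-week replicate 2, and 12, 14 and 14 without Control P5 replicates 1, 2 and 3. The shares of all genes in these runs are not given here. In the netrin system 2 of 3 netrins rose and Dcc fell. Ntn1, the diffusible netrin, had 19.1, 25.4 and 23.5 FPKM at 12 weeks, against 6.73, 5.94 and 5.14 FPKM at P5 (log2 fold change 1.77, SE 0.24, adjusted p = 7.34e-05). Its receptor Dcc had 19.0, 16.4 and 13.7 FPKM at 12 weeks, against 37.0, 35.3 and 34.6 FPKM at P5 (log2 fold change -1.09, SE 0.17, adjusted p = 0.000404). The repulsive receptors Unc5b and Unc5c rose to 6.15 ± 1.52 and 4.28 ± 0.710 FPKM at 12 weeks, against 2.40 ± 0.0595 and 2.10 ± 0.750 FPKM at P5, and Ntn4, a laminin-like netrin, rose to 10.4 ± 0.819 FPKM, against 4.50 ± 0.314 FPKM. Ntn3 did not pass, at 2.85 ± 2.70 FPKM at 12 weeks and 3.12 ± 0.246 FPKM at P5. Of 12 alternatives the call was lost in 6 for Unc5b, 5 for Ntn4 and 4 for Unc5c.

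The semaphorins that rose in the same interval were the secreted Sema3d and Sema3e. Sema3d had 9.31, 9.79 and 9.63 FPKM at 12 weeks, against 1.08, 1.67 and 1.52 FPKM at P5 (log2 fold change 2.13, SE 0.21, adjusted p = 2.98e-06). Sema3e, the ligand of Plxnd1, had 3.32, 4.73 and 4.08 FPKM at 12 weeks, against 0.958, 0.797 and 1.12 FPKM at P5 (log2 fold change 1.36, adjusted p = 0.000402). The 5 semaphorins that fell were all membrane bound: Sema4b, Sema4c, Sema4g, Sema6a and Sema6d, by 0.54 to 0.96 on the log2 scale. The call was lost in 7 of 12 alternatives for Sema4b and Sema4g, 4 for Sema4c and 2 for Sema6d, and in none for Sema6a. Plxnb3 rose again, with 22.8, 19.9 and 16.7 FPKM at 12 weeks, against 7.37, 11.8 and 8.48 FPKM at P5 (log2 fold change 1.04, adjusted p = 0.00154), beside oligodendrocyte precursor markers at 1001 to 1533 FPKM at 12 weeks and 395 to 475 FPKM at P5. Plxna1, Plxna4 and Nrp2 fell by 0.62 to 0.68 on the log2 scale, calls lost in 4, 4 and 2 of 12 alternatives.

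Of 11 Eph receptors, 5 fell and none rose. Epha8 had 3.56, 1.71 and 4.05 FPKM at 12 weeks, against 10.2, 10.5 and 11.2 FPKM at P5 (log2 fold change -1.56, adjusted p = 0.000608), and Epha7 had 3.71, 2.94 and 2.92 FPKM at 12 weeks, against 7.58, 8.15 and 8.46 FPKM at P5 (log2 fold change -1.12, adjusted p = 0.00268). Epha4 had 67.3, 72.7 and 75.1 FPKM at 12 weeks, against 110.2, 107 and 115 FPKM at P5 (log2 fold change -0.62, adjusted p = 0.0103). Ephb2 fell to 16.8 ± 1.04 FPKM, against 32.3 ± 0.528 FPKM at P5, a call lost in 2 of 12 alternatives. Ephb1 passed narrowly, at an adjusted p of 0.0485, with overlapping libraries, and lost its call in 11 of 12 alternatives; its log2 fold change was -0.73, and -1.12 without Control 12-week replicate 2 (adjusted p = 0.000216), the alternative that kept the call. No ephrin passed the test between these ages. Slit2 had 1.57, 1.46 and 1.43 FPKM at 12 weeks, against 7.45, 7.42 and 6.01 FPKM at P5 (log2 fold change -1.67, adjusted p = 0.0192), and Slit3 averaged 0.813 ± 0.606 FPKM at 12 weeks and 3.66 ± 0.350 FPKM at P5 (log2 fold change -1.42), calls lost in 5 and 6 of 12 alternatives. Robo4, the Robo known from endothelial cells, had 4.29, 7.20 and 1.83 FPKM at 12 weeks, against 0.0614, 0.196 and 0.237 FPKM at P5 (log2 fold change 2.10, adjusted p = 0.00761). The 8 endothelial markers summed to 158 to 391 FPKM at 12 weeks and 5.80 to 9.90 FPKM at P5, and their part in the Robo4 difference was not tested.

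Across both intervals, Plxna1 and Plxna4 fell at each step, Ntn1, Plxnb3 and Sema3d rose at each step, and Epha4, Epha8, Sema6a and Sema6d rose and then fell. Robo1 fell and then rose, to 10.6 ± 3.83 FPKM at 12 weeks, against 5.18 ± 0.234 FPKM at P5, a call lost in 5 of 12 alternatives. The intracellular and coreceptor genes of the same pathway were read beside them. Of 12 guidance partners and coreceptors, 2 rose and 3 fell at P5 and 3 fell at 12 weeks; of 50 intracellular transducers, 7 rose and 9 fell at P5, and 2 rose and 10 fell at 12 weeks. The shares called were 41.7% and 32% at P5, against 20.7% of all genes, and 25% and 24% at 12 weeks, against 12.6%. The adhesion molecule Cntn2 averaged 290.2 ± 11.2 FPKM at E15, 51.4 ± 2.15 at P5 and 15.2 ± 0.410 at 12 weeks, L1cam averaged 109.6 ± 8.16, 35.7 ± 1.14 and 23.9 ± 1.14 FPKM at the same ages, and the semaphorin signal mediator Dpysl3 averaged 391 ± 21.4, 200.1 ± 10.7 and 138 ± 15.3 FPKM. Each of these 3 fell at both steps. Among those that rose at P5, Ngef, an ephexin that acts downstream of EphA receptors, averaged 9.52 ± 2.20 FPKM at P5 and 1.09 ± 0.195 at E15, Dock1, which couples Dcc to Rac, averaged 8.17 ± 1.38 FPKM at P5 and 1.54 ± 0.177 at E15, and the transmembrane protein Flrt1 averaged 32.7 ± 3.67 FPKM at P5 and 9.07 ± 0.230 at E15. From P5 to 12 weeks Dpysl4 and the Slit-Robo GTPase activator Srgap3 fell, by 1.07 and 0.60 on the log2 scale, while Ablim1 and Rhoa rose, with log2 fold changes of 1.504 and 0.41.

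The promoter windows of these genes were read for composition and short motifs. Windows upstream of the RefSeq transcription start (GRCm38.p6) were found for 56 of the 66. The motifs searched on both strands were the GC box GGGCGG, the TATA box TATAAA and the E box CANNTG. Shares were taken over genes by the first window listed for each, and other windows of the same gene could differ. By that window 73.2% of the guidance genes held a GC box, against 32.9% of all 27025 genes in the table. That table was not limited to genes that met the level rule, so the motif and composition shares are not matched for expression. The TATA box was present in 3.57% against 13% and the E box in 41.1% against 66%. The median GC content was 65.4% against 52%, and GC-rich windows hold a GC box more often by composition alone. The 250 bases upstream of the start are shown for the 3 genes that led the VPA comparisons described next, with GC boxes in capitals. They are read 5′ to 3′ on the gene's strand, from chr6:115995006-115995255 (minus strand) for Plxnd1, chr5:12382916-12383165 (plus strand) for Sema3d and chrX:73756853-73757102 (plus strand) for Plxnb3. Plxnd1 holds a GC box close to its start, and the Sema3d and Plxnb3 windows hold none.
Plxnd1: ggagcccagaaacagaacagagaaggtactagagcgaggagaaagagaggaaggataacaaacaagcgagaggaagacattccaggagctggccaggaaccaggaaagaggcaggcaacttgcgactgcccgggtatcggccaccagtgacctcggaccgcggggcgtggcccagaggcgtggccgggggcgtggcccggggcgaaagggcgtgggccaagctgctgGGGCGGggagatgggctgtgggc
Sema3d: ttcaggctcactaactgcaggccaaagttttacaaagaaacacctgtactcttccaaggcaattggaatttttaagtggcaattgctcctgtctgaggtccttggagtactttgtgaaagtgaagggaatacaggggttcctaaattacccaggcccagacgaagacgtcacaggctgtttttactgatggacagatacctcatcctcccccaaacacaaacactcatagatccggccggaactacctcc
Plxnb3: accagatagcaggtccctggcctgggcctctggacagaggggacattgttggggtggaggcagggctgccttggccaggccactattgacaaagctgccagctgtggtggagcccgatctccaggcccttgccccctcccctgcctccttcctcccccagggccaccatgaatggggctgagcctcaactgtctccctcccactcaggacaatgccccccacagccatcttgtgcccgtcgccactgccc

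At E15, 1 day after the last dose, none of the 58 genes tested passed between VPA and Control forebrain, against 0.0405% of all 12345 genes tested (limma, adjusted p under 0.05). At an unadjusted p under 0.05 there were 12 of 58 guidance genes (20.7%) and 1301 of all genes (10.5%). VPA and Control libraries did not overlap for 17 of 58 genes, 9 higher and 8 lower in VPA, which is 29.3% against 17.5% of all genes (8.19% higher and 9.32% lower). The median log2 fold change was 0.03 over the guidance genes and -0.01 over all genes. The 8 genes not tested at E15, among them Sema3d, Sema3e, Plxnb3 and Robo4, were under 1 FPKM in too many of the 6 libraries.

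Plxnd1, the plexin through which Sema3e acts without a neuropilin, had the smallest p at E15. It measured 12.5, 11.5 and 9.62 FPKM in VPA, against 5.61, 6.88 and 6.86 FPKM in Control, a log2 fold change of 0.71 (SE 0.12, limma adjusted p = 0.291). Every VPA library lay above every Control library, and without VPA replicate 3, the library rich in choroid plexus markers, the log2 fold change was 0.80. Its upstream window, shown above, holds 1 GC box. Sema3c measured 17.95, 17.8 and 11.8 FPKM in VPA, against 25.1, 30.5 and 24.7 FPKM in Control (log2 fold change -0.73, SE 0.17, adjusted p = 0.344), and -0.55 without VPA replicate 3. The next genes were a netrin receptor, a class 4 semaphorin that acts through Plxnb2, and a netrin. Unc5d measured 15.2, 17.6 and 14.4 FPKM in VPA, against 20.4, 21.002 and 19.8 FPKM in Control (log2 fold change -0.36, adjusted p = 0.349). Sema4c measured 70.2, 69.4 and 64.2 FPKM in VPA, against 57.1, 52.0 and 58.1 FPKM in Control (log2 fold change 0.28, adjusted p = 0.357). Ntn1 measured 3.26, 3.56 and 3.93 FPKM in VPA, against 2.59, 0.909 and 0.660 FPKM in Control (log2 fold change 1.02, SE 0.28, adjusted p = 0.372). Groups were apart for each of these genes, and none passed. Of the 16 marker lists, the pericyte list was the one without overlap at E15, at 13.3 to 16.2 FPKM in VPA and 18.9 to 19.1 FPKM in Control.

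Among the Control libraries at E15, Ntn1 and Robo3 were highest in the library with the most interneuron marker signal. The GABAergic marker list, 9 genes including Dlx1, Dlx2 and Gad1, summed to 330 to 422 FPKM in VPA and 181 to 346 FPKM in Control, with the Control maximum in replicate 1. Gad1, Gad2, Slc32a1 and each Dlx gene of the list were highest of the Control libraries there, but Lhx6 and Sst were not. In Control replicates 1, 2 and 3 Lhx6 was at 39.4, 39.9 and 38.1 FPKM and Sst at 45.7, 57.0 and 56.0 FPKM. Control replicate 1 also held the highest Control Ntn1, 2.59 FPKM, and the highest Robo3 of any library, 4.81 FPKM, against 2.05, 3.10 and 2.47 FPKM in VPA and 0.539 and 0.0480 FPKM in the other Control libraries. Without Control replicate 1 the Ntn1 log2 fold change was 1.36 (adjusted p = 0.0636). Within VPA the order did not hold: the library with the most marker signal, replicate 1 at 422 FPKM, had the lowest Ntn1 and Robo3 of the 3. The part of interneuron content in the Ntn1 difference was not tested.

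At P5, 1 of 62 guidance genes passed between VPA and Control dentate gyrus, which is 1.61% against 2.24% of all 13328 genes tested (0.9% higher and 1.34% lower). At an unadjusted p under 0.05 there were 24 of 62 guidance genes (38.7%) and 3193 of all genes (24%). The gene that passed was Plxnd1. It measured 8.64, 10.4 and 9.64 FPKM in VPA, against 5.03, 5.42 and 5.82 FPKM in Control, a log2 fold change of 0.72 (SE 0.09, adjusted p = 0.0195). Every VPA library lay above every Control library. The log2 fold change stayed between 0.66 and 0.80 in all 12 alternatives, but the call was lost in 6 of them: with no filter on low values, in the fit of all 21 libraries, and without VPA replicate 2 or 3 or Control replicate 1 or 2. The difference in the Plxnd1 effect between P5 and E15 was 0.01 on the log2 scale (adjusted p = 1). Plxnd1 is also known from endothelial cells, and at P5 the endothelial markers summed to 13.8 to 18.7 FPKM in VPA and 5.80 to 9.90 FPKM in Control. At E15, where Plxnd1 was also higher in VPA, the same markers summed to 1.06 to 3.26 FPKM in VPA and 1.75 to 4.37 FPKM in Control. The part of endothelial content in the Plxnd1 values was not tested.

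Other genes were near the threshold at P5 without passing. Efnb3 measured 31.7, 35.4 and 38.4 FPKM in VPA, against 26.1, 26.4 and 29.4 FPKM in Control (log2 fold change 0.35, adjusted p = 0.0734). Unc5b measured 4.05, 4.40 and 3.11 FPKM in VPA, against 2.34, 2.39 and 2.46 FPKM in Control (log2 fold change 0.50, adjusted p = 0.0750). These are a transmembrane ephrin and a repulsive netrin receptor, and the next genes are a class 4 semaphorin and a plexin that pairs with Nrp1. Sema4g measured 72.4, 84.3 and 80.5 FPKM in VPA, against 67.7, 62.9 and 66.1 FPKM in Control (log2 fold change 0.26, adjusted p = 0.0811). Plxna4 measured 22.0, 26.6 and 25.9 FPKM in VPA, against 20.3, 20.0 and 20.2 FPKM in Control (log2 fold change 0.28, adjusted p = 0.0927). Libraries did not overlap for any of these 4.

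The number of calls at P5 rested on VPA replicate 1. Without it 13 guidance genes passed, 11 higher and 2 lower in VPA, with the share of all genes in that run not given here. The higher ones were Plxnd1, Plxna2, Plxna4, Sema4f, Sema4g, Sema5a, Sema6b, Nrp2, Epha8, Efnb3 and Slit3, and the lower ones Efnb2 and Unc5d. Sema5a had 34.7, 51.5 and 52.2 FPKM in VPA, against 29.6, 33.9 and 34.6 FPKM in Control, so that the value in VPA replicate 1 was the nearest to Control. This did not hold for every gene: for Unc5b, given above, that library lay between the other VPA libraries. With all libraries, 25 of 62 genes did not overlap between the groups, 18 higher and 7 lower in VPA, which is 40.3% against 29.4% of all genes (13.8% higher and 15.6% lower). Of the 19 semaphorins tested 8 were apart and all 8 were higher in VPA. The pericyte markers summed to 164 to 282 FPKM in VPA and 112 to 127 FPKM in Control at P5, the fibroblast markers to 67.9 to 96.9 FPKM in VPA and 45.4 to 62.8 FPKM in Control, and the Cajal-Retzius cell markers to 87.6 to 111 FPKM in VPA and 36.9 to 77.1 FPKM in Control. The microglia markers summed to 30.9 to 40.3 FPKM in VPA and 21.7 to 27.0 FPKM in Control. Other lists were lower in VPA without overlap. The neural stem cell and radial glia markers summed to 2542 to 2641 FPKM in VPA and 2652 to 3057 FPKM in Control, and the intermediate progenitor markers to 263 to 298 FPKM in VPA and 354 to 372 FPKM in Control. The erythroid markers summed to 92.7 to 397 FPKM in VPA and 727 to 1033 FPKM in Control, and the immediate early genes to 403 to 569 FPKM in VPA and 1359 to 1598 FPKM in Control. Their part in the P5 values was not tested.

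**Figure D3:**
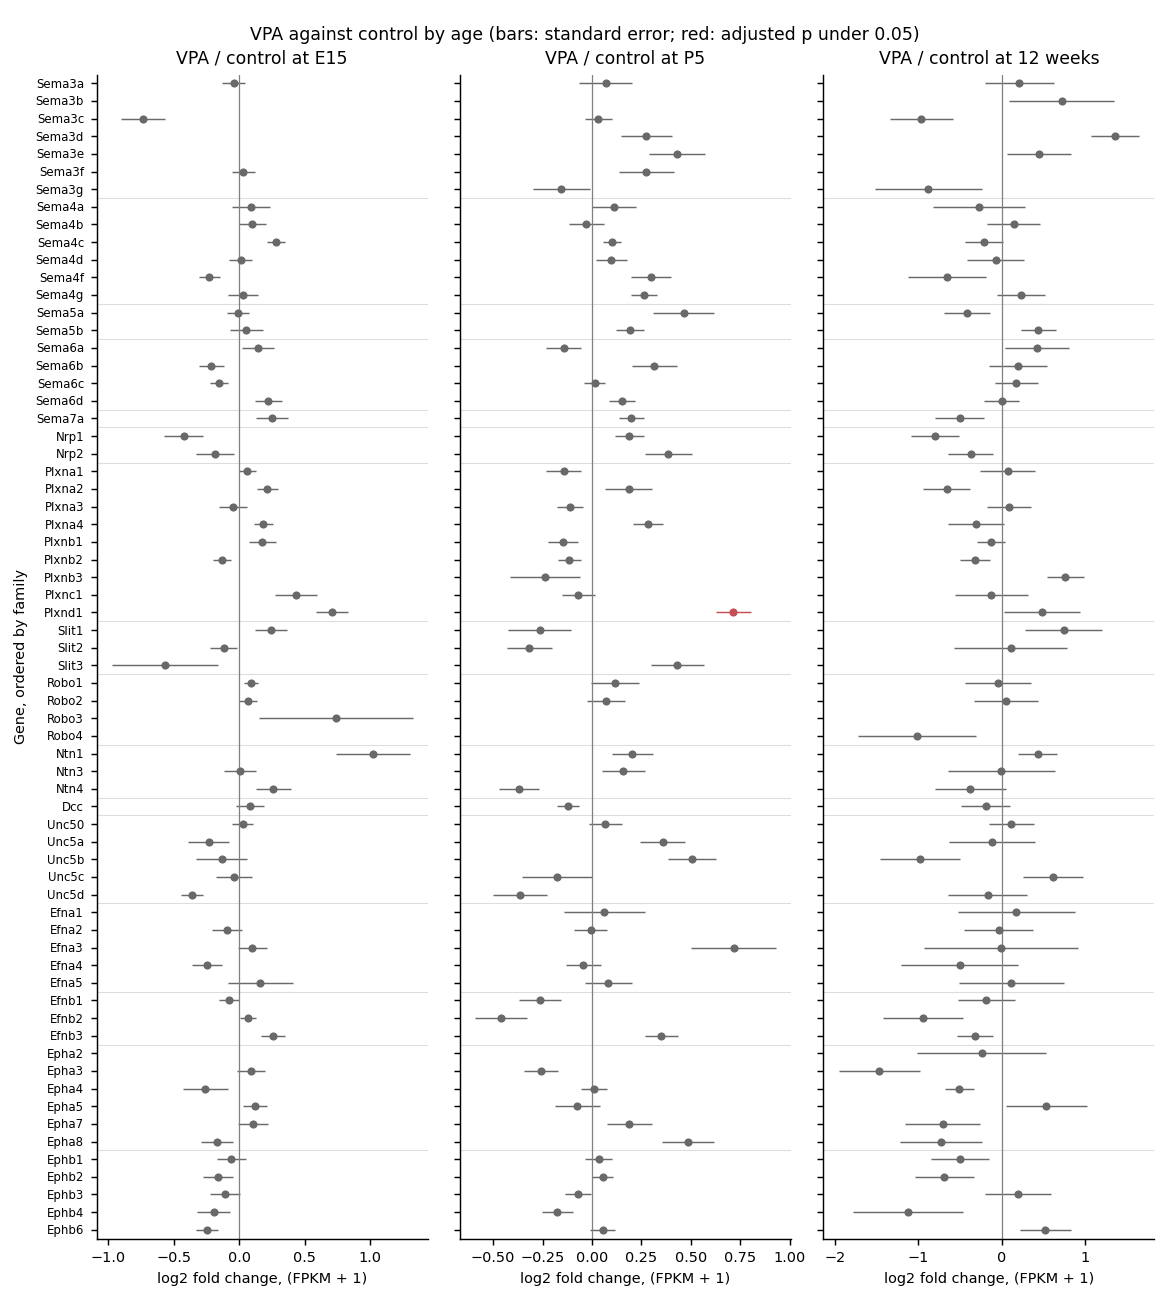
Log2 fold change of VPA over Control for each guidance gene tested at E15, P5 and 12 weeks, on log2(FPKM + 1); points are estimates, bars the standard error, and red marks an adjusted p under 0.05, with genes ordered by family and a different x scale in each panel. Plxnd1 at P5, at 0.72, is the only red point, and the bars at 12 weeks are wider than at the earlier ages.

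At 12 weeks no guidance gene of 63 passed between sedentary VPA and Control, and none of all 13847 genes did (0%). At an unadjusted p under 0.05 there were 7 of 63 guidance genes (11.1%) and 885 of all genes (6.39%). VPA and Control libraries were apart for 22 of 63 genes, 7 higher and 15 lower in VPA, which is 34.9% against 15.5% of all genes (7.83% higher and 7.63% lower), and the median log2 fold change was -0.11 over the guidance genes and -0.01 over all genes. Sema3d had the smallest p, with 30.4, 18.2 and 32.4 FPKM in VPA, against 9.31, 9.79 and 9.63 FPKM in Control (log2 fold change 1.36, SE 0.29, adjusted p = 0.415). Plxnb3 measured 31.2, 38.8 and 32.9 FPKM in VPA, against 22.8, 19.9 and 16.7 FPKM in Control (log2 fold change 0.77, SE 0.23, adjusted p = 0.558). Both were apart between the groups, and both rose at each age step in Control. Their upstream windows, shown above, hold no GC box. The oligodendrocyte precursor markers also did not overlap, at 1681 to 2656 FPKM in VPA and 1001 to 1533 FPKM in Control, and their part in these differences was not tested.

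Several Eph receptors and both neuropilins had lower values in VPA at 12 weeks, none of them passing. Epha3 measured 0.831, 1.30 and 1.47 FPKM in VPA, against 4.95, 4.25 and 6.06 FPKM in Control (log2 fold change -1.47, SE 0.49, adjusted p = 0.619). Epha4 measured 59.9, 51.0 and 41.4 FPKM in VPA, against 67.3, 72.7 and 75.1 FPKM in Control (log2 fold change -0.50, adjusted p = 0.650). Of the 11 Eph receptors, 6 were apart between the groups, 5 lower and 1 higher in VPA. Nrp1 measured 25.9, 13.5 and 14.9 FPKM in VPA, against 26.5, 37.4 and 30.1 FPKM in Control (log2 fold change -0.80, adjusted p = 0.664), and Nrp2 measured 13.3, 12.3 and 9.71 FPKM in VPA, against 15.6, 13.5 and 17.4 FPKM in Control. Plxnd1 measured 5.09, 3.73 and 9.87 FPKM in VPA, against 4.30, 2.75 and 4.72 FPKM in Control, so the groups overlapped at this age. Newborn neuron markers summed to 995 to 1271 FPKM in VPA and 1607 to 1759 FPKM in Control, and endothelial markers to 73.3 to 139.6 FPKM in VPA and 158 to 391 FPKM in Control. The fibroblast markers summed to 272 to 431 FPKM in VPA and 170.4 to 235 FPKM in Control. Most of that sum was Pdgfra, also an oligodendrocyte precursor marker, at 251, 318 and 424 FPKM in VPA and 149.5, 188 and 124 FPKM in Control. No other gene of the fibroblast list was higher in VPA without overlap. Dcn was lower, at 3.96, 3.42 and 1.29 FPKM in VPA and 4.78, 28.2 and 16.1 FPKM in Control. The immediate early genes summed to 2162 to 2403 FPKM in VPA and 1543 to 2147 FPKM in Control. The part of these marker lists in the values was not tested. Without Control replicate 1, the library rich in microglia markers, the log2 fold changes were 1.34 for Sema3d, 0.87 for Plxnb3, -1.48 for Epha3, -0.55 for Epha4 and -0.91 for Nrp1.

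Running was measured within VPA-exposed mice. None of 63 guidance genes passed between running and sedentary VPA, as for all genes (0% of 13847). At an unadjusted p under 0.05 there were 9 of 63 guidance genes (14.3%) and 1566 of all genes (11.3%). The libraries were apart for 14 of 63 genes, 4 higher and 10 lower with running, which is 22.2% against 15.5% of all genes (6.98% higher and 8.48% lower). The genes with the smallest p were again Plxnb3, with 20.4, 16.4 and 16.5 FPKM in running VPA against 31.2, 38.8 and 32.9 FPKM in sedentary VPA (log2 fold change -0.91, SE 0.23, adjusted p = 0.185), and Sema3d, with 12.6, 10.2 and 10.4 FPKM in running VPA against 30.4, 18.2 and 32.4 FPKM in sedentary VPA (log2 fold change -1.17, SE 0.29, adjusted p = 0.187). The sedentary VPA libraries enter this comparison and the one before it, so a value that is extreme in them moves both in opposite directions, and the shared values carry no separate evidence. Oligodendrocyte precursor markers summed to 824 to 1124 FPKM in running VPA, against 1681 to 2656 FPKM in sedentary VPA. Fibroblast markers summed to 133 to 163 FPKM against 272 to 431 FPKM. Most of that sum was the shared marker Pdgfra, at 140, 122 and 154 FPKM against 251, 318 and 424 FPKM. Every other gene of the fibroblast list overlapped between the groups. Microglia markers summed to 30.9 to 80.1 FPKM against 84.8 to 99.1 FPKM, and immediate early genes to 1076 to 1584 FPKM against 2162 to 2403 FPKM. Higher with running were the sums of the neural stem cell and radial glia markers, at 1340 to 1882 FPKM against 871 to 1068 FPKM in sedentary VPA, the astrocyte markers, at 580 to 735 FPKM against 374 to 491 FPKM, and the intermediate progenitor markers, at 466 to 515 FPKM against 387 to 451 FPKM. Within the stem cell list only Slc1a3, Hopx and Gfap were apart. Of the astrocyte markers Aldoc, Slc1a2, Aqp4 and Gja1 were higher without overlap, and Gjb6 and Aldh1l1 overlapped. S100b was lower with running, at 62.5, 25.2 and 76.4 FPKM against 101, 101 and 125 FPKM. Of the intermediate progenitor markers Neurog2 and Gadd45g were higher and Btg2 lower without overlap. The part of these lists in the running values was not tested.

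Epha4 measured 72.3, 74.1 and 84.0 FPKM in running VPA, against 59.9, 51.0 and 41.4 FPKM in sedentary VPA (log2 fold change 0.60, adjusted p = 0.264). Sema6b measured 17.3, 7.81 and 12.5 FPKM in running VPA, against 19.2, 21.9 and 36.2 FPKM in sedentary VPA (log2 fold change -0.99, adjusted p = 0.315). Efnb2 measured 7.78, 10.1 and 18.1 FPKM in running VPA, against 6.16, 5.88 and 1.66 FPKM in sedentary VPA (log2 fold change 1.28, adjusted p = 0.363). The groups did not overlap for these 3 genes, of which Epha4 and Efnb2 were higher and Sema6b lower with running. Without running VPA replicate 3, the library with the most genes listed at 0, the log2 fold changes were -0.87 for Plxnb3, -1.14 for Sema3d and 0.96 for Efnb2. The Efnb2 value was 0.81 without sedentary VPA replicate 3, its lowest with a library left out.

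Running VPA was also set against Control, a contrast in which exposure and running differ together. None of 63 guidance genes passed (0% of all 13847 genes), with 5 of 63 (7.94%) and 1074 of all genes (7.76%) at an unadjusted p under 0.05. Libraries were apart for 11 of 63 genes, 3 higher and 8 lower in running VPA, which is 17.5% against 13.1% of all genes (5.83% higher and 7.24% lower). Epha8 measured 0.268, 0.414 and 0 FPKM in running VPA, against 3.56, 1.71 and 4.05 FPKM in Control (log2 fold change -1.71, SE 0.49, adjusted p = 0.612). Sema5a measured 10.3, 15.8 and 19.0 FPKM in running VPA, against 27.4, 35.2 and 23.6 FPKM in Control (log2 fold change -0.91, adjusted p = 0.612), and Sema4c measured 20.5, 20.2 and 28.5 FPKM in running VPA, against 43.1, 32.2 and 44.0 FPKM in Control (log2 fold change -0.76, adjusted p = 0.612). Sema7a, with a log2 fold change of -0.72, overlapped between the groups, and Sema6b, at -0.80, did not; without running VPA replicate 2 the Sema6b value was -0.52. Plxnb3 and Sema3d measured 17.7 ± 2.26 and 11.1 ± 1.30 FPKM in running VPA, against 19.8 ± 3.04 and 9.58 ± 0.242 FPKM in Control. Marker lists that did not overlap here were the intermediate progenitors, the GABAergic interneurons and the fibroblasts. The intermediate progenitor markers summed to 466 to 515 FPKM in running VPA and 408 to 451 FPKM in Control. The GABAergic markers summed to 61.6 to 66.5 FPKM in running VPA and 17.8 to 53.6 FPKM in Control. Within that list only Dlx1 and Dlx5 did not overlap, and Lhx6 and Sst were at 0 in running VPA. The fibroblast markers summed to 133 to 163 FPKM in running VPA and 170.4 to 235 FPKM in Control. Pdgfra, which made up most of the fibroblast sum, overlapped. The part of these lists was not tested.

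The effect of VPA was compared between ages in the fit of all 21 libraries. None of the 66 genes passed for the VPA effect at P5 minus that at E15, against 0.0955% of all 14662 genes, and none for the effect at 12 weeks minus that at P5, against 0.389%. At an unadjusted p under 0.05 there were 2 of 66 guidance genes in the first contrast (3.03%, against 1.93% of all genes). In the second there were 18 of 66 (27.3%, against 10.5% of all genes). The smallest p in the second belonged to Plxnb3, with a difference in log2 fold change of 1.004 (SE 0.27, adjusted p = 0.139), Sema3d, 1.09 (SE 0.30, adjusted p = 0.143), Nrp1, -0.99 (SE 0.29, adjusted p = 0.181), Unc5b, -1.49 (SE 0.45, adjusted p = 0.194) and Efnb3, -0.67 (SE 0.20, adjusted p = 0.194). In the first they were Ntn1, at -0.82, Nrp2, at 0.57, Nrp1, at 0.61, Plxnb1, at -0.33, and Sema3c, at 0.77, each with an adjusted p of 1. Nrp1 passed in the second contrast without VPA 12-week replicate 1, and Sema3d without VPA 12-week replicate 2.

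Ligands and receptors known to bind each other were set side by side over the 7 groups, as ranges of group means. For the neuropilin ligands, Sema3a lay between 2.004 and 6.61 FPKM and Nrp1 between 18.1 and 70.8 FPKM, each highest in Control at E15, while Sema3f lay between 0.228 and 22.9 FPKM and Nrp2 between 11.8 and 33.7 FPKM. Sema3e lay between 0.342 FPKM, in Control at E15, and 5.87 FPKM, in sedentary VPA at 12 weeks, and its receptor Plxnd1 between 3.92 FPKM, in Control at 12 weeks, and 11.2 FPKM, in VPA at E15. Sema3e was thus lowest at E15, the age at which Plxnd1 was highest. Sema4d lay between 10.8 and 20.96 FPKM beside its receptor Plxnb1 at 40.4 to 64.4 FPKM, Sema6a between 4.13 and 12.2 FPKM beside Plxna2 at 26.3 to 111 FPKM, and Sema6d between 32.5 and 79.3 FPKM beside Plxna1 at 8.34 to 36.0 FPKM. Sema4d, Sema6a, Sema6d and Plxnb1 had their highest means at P5, and Plxna1 and Plxna2 at E15.

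For Slits, Slit1 lay between 2.26 and 22.0 FPKM beside Robo1 at 5.18 to 42.4 FPKM, both highest in VPA at E15, and Slit2 between 1.39 and 6.96 FPKM beside Robo2 at 5.56 to 54.1 FPKM. Efnb2 lay between 4.57 FPKM, in sedentary VPA at 12 weeks, and 115 FPKM, in VPA at E15, beside Ephb2 at 10.3 to 36.9 FPKM and Ephb4 at 2.02 to 5.72 FPKM. Efna5, at 0.795 to 4.65 FPKM, and Efnb3, at 27.3 to 59.7 FPKM, bind Epha4, at 43.5 to 112 FPKM. Ntn1 lay between 1.38 and 30.9 FPKM, beside Dcc at 14.5 to 35.6 FPKM, Unc5c at 1.24 to 7.08 FPKM and Unc5b at 2.01 to 6.15 FPKM. Ntn1 and Unc5c were both highest in sedentary VPA at 12 weeks, where Dcc had its lowest mean.

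Several limits bear on single genes. The libraries' strand is not given in the sources used here, and 14 of the 66 genes have exons that overlap another gene, 11 of them on the opposite strand, including Efna3, Plxna1, Plxna4, Plxnb1, Ephb1, Sema4c, Unc5a and Unc5c. Plxnd1, Sema3d and Plxnb3 have no such overlap. A fold change on log2(FPKM + 1) understates the change of low genes such as Sema3f at P5 and Plxnb3 at E15.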

How the data were processed

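Polyadenylated RNA from sorted cells was sequenced in 21 libraries. The submitters' processing notes name Bowtie2, TopHat, Cufflinks and Cuffdiff and the mm10 build, without versions. The authors deposited FPKM, 1 value per symbol and library; the 12-week headers name FPKM, and for the E15 and P5 tables, whose headers name only the sample, FPKM was inferred from the values. Read depth is therefore unknown. Relative to Control E15 replicate 1, the spacing of low values put depth at 0.964 to 1.41 at E15 and 0.678 to 1.33 at P5. In 12-week libraries it gave 0.564 to 2.12, from only 12 to 31 genes each, against 183 to 428 genes at E15 and P5. The 12-week depth values are therefore uncertain.

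Values were analysed as log2(FPKM + 1) with limma 3.58.1 in R 4.3.3 (lmFit, eBayes with an intensity trend). Genes were fitted where 3 or more of the fit's libraries reached 1 FPKM. P-values were adjusted by Benjamini-Hochberg over all genes tested in each of 9 comparisons and read at 0.05. E15 and P5 were fitted on 6 libraries each, 12 weeks on 9, and the ages and interactions on all 21. P-values measure spread between libraries whose independence is not stated. The fit was tested on simulated data, where fewer changes were recovered at 12 weeks than at E15 or P5. The values are not reported here. All 66 genes matched a single GENCODE vM21 gene.

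Genes were named by rule: every gene past the threshold, with library values for up to 12; the 5 smallest p-values where fewer than 5 passed; the 8 highest and 8 lowest age changes; the 2 most abundant genes per family; 15 ligand and receptor pairs; and up to 3 genes per direction of 2 pathway lists. Sema3b, Slit3, Robo3 and the genes called without VPA P5 replicate 1 were named after their values were seen. Guidance genes, pathway lists and marker lists were chosen with earlier results of these data known. The oligodendrocyte precursor list shares Pdgfra with the fibroblast list and Cspg4 with the pericyte list. Pdgfra made up most of the fibroblast sum in every P5 and 12-week library.

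Replicate numbers paired the VPA and Control libraries at E15, where same-numbered libraries deviated together (correlations 0.106 to 0.161), a hint from the data as the labels name no shared batch. At P5 (-0.0424 to 0.0634) and 12 weeks (-0.0460 to -0.00907, VPA against Control) they did not. Alternatives were a pseudocount of 0.1, no filter, median-of-ratios scaling, no trend, a replicate block, other sets of libraries in the fit, and leaving out each library.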

Additional observations from a re-analysis of the deposited data

Results flagged for a closer look

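For 9 values the VPA and Control libraries did not overlap at either of 2 ages and differed in opposite directions. This was 4 of 66 guidance genes (6.06%) for P5 and E15, against 2.65% of all genes tested, and 5 of 66 (7.58%) for 12 weeks and P5, against 2.56%. The interaction test passed for none of them. For the VPA effect at P5 minus that at E15, the differences in log2 fold change were 0.65 for Epha8, 0.61 for Nrp1, 0.52 for Sema4f and -0.63 for Ntn4, each with a limma adjusted p of 1. At P5 Epha8 measured 12.6, 19.0 and 14.97 FPKM in VPA, against 10.2, 10.5 and 11.2 FPKM in Control; at E15 it measured 1.40, 1.21 and 1.05 FPKM in VPA, against 1.45, 1.53 and 1.49 FPKM in Control. For the effect at 12 weeks minus that at P5, the differences were -0.99 for Nrp1 (adjusted p = 0.181), -0.76 for Nrp2 (adjusted p = 0.214), -0.95 for Sema4f (adjusted p = 0.507), -0.87 for Sema5a (adjusted p = 0.230) and -1.49 for Unc5b (adjusted p = 0.194). Nrp1 was lower in VPA at E15, with 54.8, 62.6 and 41.8 FPKM against 65.4, 77.8 and 69.2 FPKM in Control, higher at P5, with 32.4, 35.0 and 39.2 FPKM against 30.4, 30.2 and 32.3 FPKM, and lower at 12 weeks, with 25.9, 13.5 and 14.9 FPKM against 26.5, 37.4 and 30.1 FPKM. Sema4f had the same order: 12.3, 11.5 and 11.2 FPKM in VPA against 13.1, 14.8 and 13.7 FPKM in Control at E15, 22.6, 28.7 and 28.9 FPKM against 21.5, 20.4 and 22.4 FPKM at P5, and 16.4, 14.7 and 12.3 FPKM against 22.6, 23.8 and 23.4 FPKM at 12 weeks. Unc5b measured 3.05, 2.77 and 1.98 FPKM in VPA against 5.21, 7.90 and 5.34 FPKM in Control at 12 weeks, beside 4.05, 4.40 and 3.11 FPKM against 2.34, 2.39 and 2.46 FPKM at P5.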

How the results depend on the processing

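Of 1140 alternative values for 90 single-gene results, 1046 kept direction and side of the threshold, 89 lost the call, 5 gained it and none reversed. The count of guidance genes called for VPA against Control at P5, 1 with the design as reported, was 0 with no filter and 0 in the fit of all 21 libraries, and ranged from 0 to 13 when each library was left out, with 13 without VPA replicate 1. For Control P5 against Control E15 the count was 48 in the fit of only those groups, against 30, and 29 to 30 with a library left out. For Control at 12 weeks against Control at P5 it was 25 and ranged from 12 to 24 with a library left out: 14 without Control 12-week replicate 2, and 12, 14 and 14 without Control P5 replicates 1, 2 and 3. The difference in VPA effect between 12 weeks and P5 gave 0 to 1, with Nrp1 called without VPA 12-week replicate 1 and Sema3d without VPA 12-week replicate 2. The other 5 comparisons gave 0 in every alternative run. With the replicate block the counts were 1 at P5, where 70 of all genes were called, against 298 without it, 30 for P5 against E15, 23 for 12 weeks against P5 and 0 elsewhere, E15 included. Median-of-ratios scaling moved the median of all genes by at most 0.0969 on the log2 scale and gave 12 higher and 20 lower at P5 against E15. The causes were not tested. Outside the replicate block at P5, the shares of all genes behind these alternative counts are not given here. Replicate spread was largest at 12 weeks, where up to 9 guidance genes were listed at 0 in a library.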
